A study of Mus musculus with 8 samples.

Results

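The 8 genes described here mark lymphatic endothelium or encode the growth factors that act on it: Prox1, Lyve1, Pdpn, Flt4, Reln, Mmrn1, Vegfc and Vegfd. They were chosen by name, each is represented by 1 transcript cluster, the unit that sums the array probes of a transcript, and all 8 were among the 22180 genes with 1 symbol on the arrays. Each was measured in 4 mice with activated stromal Hh signalling (Col1a2CreER;Ptch1fl/fl, labelled Hh activation and called Ptch1ΔCol1 here) and 4 controls (labelled wt_ctrl). RNA came from 1 cm of whole distal colon, 7 days after tamoxifen at 5 mg, which all 8 mice received and which the sample labels relate to body weight. The Cre is driven by a Col1a2 promoter transgene, so Ptch1, the inhibitory Hh receptor, was targeted in collagen-producing stromal cells. The paper reports recombination only in stroma but names no endothelial marker, and recombination in endothelium was not tested here.

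Of the 4 Ptch1ΔCol1 mice, 2 also carried R26-LSL-tdTomato, a conditional fluorescent reporter. The controls had no Cre in their labels. Of these, 2 were Ptch1fl/+ and 2 carried R26-tdTomato. Each group held 3 females and 1 male, and no ages were stated. The values are log2 expression after robust multi-array average (RMA), and the number of arrays limits their precision. Gli1, the transcription factor whose own level reports Hh activity, was at 6.42, 6.36, 6.36 and 6.37 in Ptch1ΔCol1 mice, against 4.94, 5.12, 5.20 and 4.81 in controls (limma adjusted p = 0.00203). Ptch1 itself was at 9.58, 9.21, 9.19 and 9.63 in Ptch1ΔCol1 mice, against 8.48, 8.77, 8.61 and 8.49 in controls, and its level does not show whether the floxed alleles were deleted. Across transcript clusters, Ptch1ΔCol1 replicate 3, the male of its group, had a mean r of 0.979 with the rest, and the 7 other mice had values from 0.985 to 0.987.

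Lymphatic capillaries drain fluid, fat and leukocytes from the gut wall. Their endothelium is specified by Prox1, a homeobox transcription factor, and grows in response to VEGF-C and VEGF-D, which bind the receptor tyrosine kinase VEGFR-3 encoded by Flt4. Lyve1 encodes a hyaluronan receptor of lymphatic capillaries, Pdpn the membrane mucin podoplanin, Mmrn1 the secreted protein multimerin 1, and Reln the secreted glycoprotein reelin. None of these genes is private to lymphatic vessels in whole colon. Lyve1 is also made by some tissue macrophages, Pdpn by fibroblastic reticular cells, Prox1 by secretory cells of the gut epithelium and Reln by neurons.

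No gene of the 8 passed limma over all genes (adjusted p under 0.05 after Benjamini-Hochberg), where 0.018% of the 22180 genes were called higher and 0.00902% lower (0.0271% in either direction). Of the 8, 6 had negative and 2 positive log2 fold changes, Ptch1ΔCol1 over control, with a median of -0.29, while the median over all genes was -0.01 and 52.3% of them were negative. The groups did not overlap for 2 of the 8, Prox1 and Vegfc, both lower in every Ptch1ΔCol1 mouse, against 2.9% of all genes lower and 2.47% higher without overlap. These 2 were the only ones of the 8 with an unadjusted p under 0.05 from limma, against 4.91% of all genes lower and 4.31% higher at that level. That p comes from the same values and is not separate support. The other 6 overlapped, and 5 of these 6 had their lowest value of all 8 mice in Ptch1ΔCol1 replicate 3. That mouse was the lowest for 16.8% of all genes, close to the 16.5% of Ptch1ΔCol1 replicate 1.

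Because Prox1 and Vegfc are the 2 genes whose groups were separate, the 250 bases before their RefSeq transcription starts are shown (assembly GRCm38.p6, 5′ to 3′ on the strand of the gene). Capitals mark the GC box (GGGCGG or its reverse complement CCGCCC) and the TATA box (TATAAA or TTTATA), and none of these matches overlap.
Prox1, start 1, chr1:190170828-190171077, minus strand: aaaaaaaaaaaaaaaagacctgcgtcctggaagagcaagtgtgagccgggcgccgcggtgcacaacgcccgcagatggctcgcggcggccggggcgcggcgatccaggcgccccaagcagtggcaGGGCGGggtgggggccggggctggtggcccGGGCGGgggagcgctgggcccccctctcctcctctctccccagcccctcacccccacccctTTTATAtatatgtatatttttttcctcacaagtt
Prox1, start 2, chr1:190169516-190169765, minus strand: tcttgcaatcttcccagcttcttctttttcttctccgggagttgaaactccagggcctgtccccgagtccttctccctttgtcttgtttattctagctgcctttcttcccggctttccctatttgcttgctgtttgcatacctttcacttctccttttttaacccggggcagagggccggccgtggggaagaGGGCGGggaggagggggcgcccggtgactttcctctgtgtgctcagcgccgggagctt
Vegfc, chr8:54077282-54077531, plus strand: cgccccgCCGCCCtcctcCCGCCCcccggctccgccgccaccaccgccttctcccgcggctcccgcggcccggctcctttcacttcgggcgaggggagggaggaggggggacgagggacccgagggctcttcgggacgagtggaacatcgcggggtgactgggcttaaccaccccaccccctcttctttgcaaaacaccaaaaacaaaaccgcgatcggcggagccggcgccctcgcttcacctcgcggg

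The 3 windows hold 20, 11 and 30 CpG dinucleotides in the order shown, against a median of 6 over the 32851 windows of all genes. At least 1 GC box stood in each of the 3, as in 32.7% of all windows, and a TATA box in the first of Prox1, as in 12.4%. The letters GACCACCCA, the consensus bound by Gli factors, or their reverse complement TGGGTGGTC, were found in 0 of the 8 windows of the 7 genes that had one, and in 0.225% of all windows. A match or its absence describes these letters in these windows only.

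Prox1 was at 5.34, 5.41, 4.92 and 5.18 in Ptch1ΔCol1 mice, against 5.53, 5.96, 5.67 and 5.61 in controls (log2 units, replicates 1 to 4). The highest Ptch1ΔCol1 mouse lay below the lowest control, and control replicate 2, a male, was the highest of all. The means were 5.21 ± 0.22 in Ptch1ΔCol1 mice and 5.69 ± 0.19 in controls (SD, n = 4), and the difference of -0.48 (standard error, SE, 0.13) corresponds to 0.717-fold. It missed the threshold (limma adjusted p = 0.396), with p = 0.0286 in a two-sided exact permutation test, the smallest that 4 mice against 4 allow. Any gene whose groups do not overlap gets that permutation p, so it restates the separation. Without Ptch1ΔCol1 replicate 3 the log2 fold change was -0.38 (SE 0.12). In whole colon, fewer lymphatic cells, less Prox1 RNA per cell and a change in other cells that make Prox1 cannot be told apart.

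Vegfc, which encodes the main ligand for lymphatic growth, was at 6.80, 6.55, 6.45 and 6.77 in Ptch1ΔCol1 mice, against 6.86, 6.95, 6.94 and 7.01 in controls. The gap between the groups was narrow, from replicate 1 of the Ptch1ΔCol1 mice to replicate 1 of the controls, but every Ptch1ΔCol1 mouse was on the low side of it. Its log2 fold change was -0.30 (SE 0.10, 0.814-fold), with limma adjusted p = 0.449 and p = 0.0286 in the exact permutation test. Without Ptch1ΔCol1 replicate 3 it was -0.23 (SE 0.09).

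Vegfd, the second ligand of VEGFR-3, had the opposite sign. It was at 6.33, 5.79, 6.90 and 5.92 in Ptch1ΔCol1 mice, against 6.13, 5.59, 5.65 and 5.85 in controls. Replicates 1 and 3 of the Ptch1ΔCol1 mice were above every control and replicates 2 and 4 were among them. The log2 fold change of 0.43 (SE 0.23) did not pass (limma adjusted p = 0.595), the exact permutation test gave p = 0.2, and without replicate 3 the value was 0.21.

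**Figure D1:**
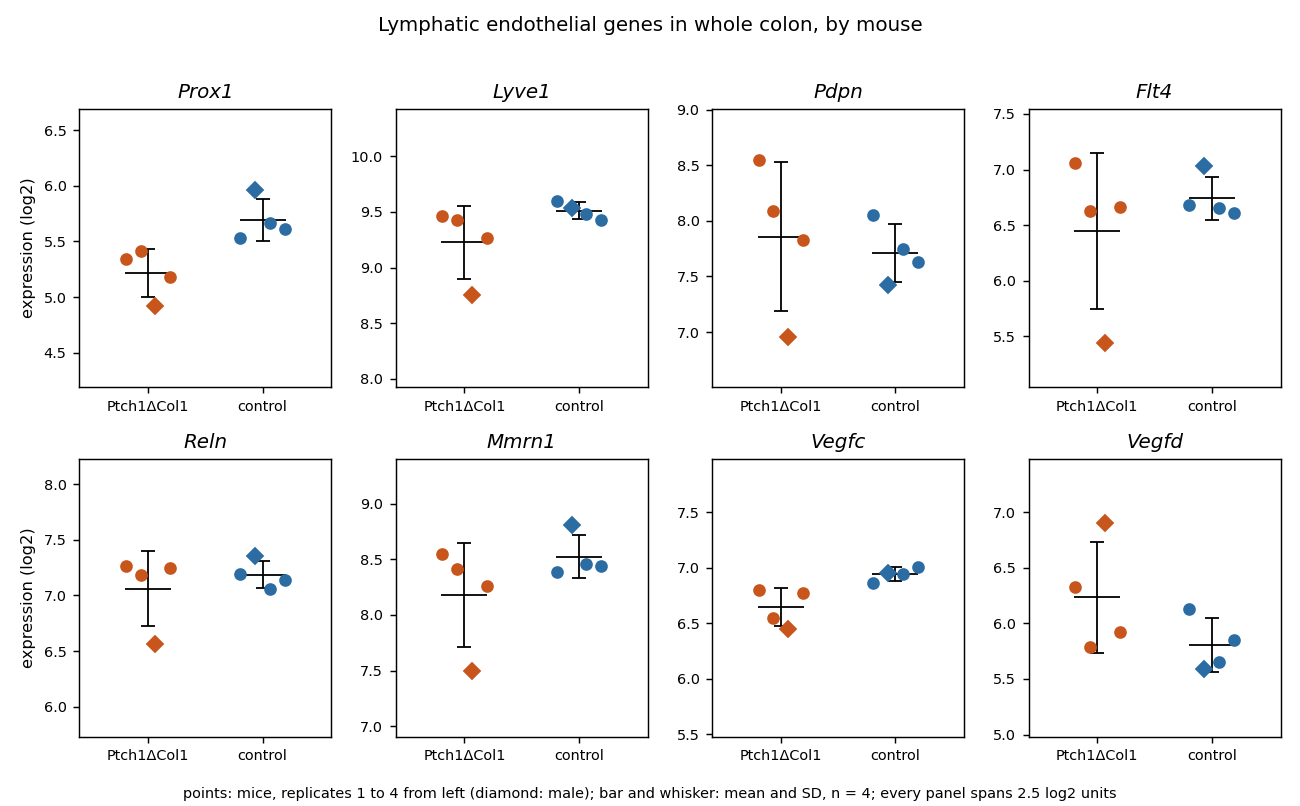
Expression (log2, vertical axis) of the 8 genes in each Ptch1ΔCol1 mouse and each control, with the mean and SD of 4 mice per group and diamonds for males. Prox1 and Vegfc are separate between the groups, and the male Ptch1ΔCol1 mouse, replicate 3, is the lowest point for every gene but Vegfd, where it is the highest at 6.90.

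Flt4, the receptor for both ligands, was at 7.06, 6.63, 5.44 and 6.66 in Ptch1ΔCol1 mice, against 6.68, 7.03, 6.65 and 6.61 in controls. Replicate 3 was 1.62 below the highest Ptch1ΔCol1 mouse, and the other 3 lay within the span of the controls or just above it. The log2 fold change was -0.30 (SE 0.29, limma adjusted p = 0.781), and without replicate 3 it turned to 0.04, with a 95% interval from -0.28 to 0.36.

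Mmrn1 was at 8.55, 8.41, 7.50 and 8.26 in Ptch1ΔCol1 mice, against 8.39, 8.81, 8.46 and 8.44 in controls. Control replicate 2 was again the highest and Ptch1ΔCol1 replicate 3 the lowest. Its log2 fold change was -0.35 (SE 0.21, limma adjusted p = 0.638), and -0.12 without replicate 3. Lyve1 was at 9.46, 9.43, 8.75 and 9.27 in Ptch1ΔCol1 mice, against 9.60, 9.54, 9.48 and 9.43 in controls. The controls spanned 0.17, and replicate 2 of the Ptch1ΔCol1 mice equalled the lowest of them at 9.43. The log2 fold change was -0.29 (SE 0.15, limma adjusted p = 0.590; exact permutation test, p = 0.0857), and -0.13 without replicate 3.

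Reln was at 7.26, 7.18, 6.56 and 7.25 in Ptch1ΔCol1 mice, against 7.19, 7.35, 7.06 and 7.14 in controls. Apart from replicate 3, the Ptch1ΔCol1 mice lay within 0.08 of each other and inside the span of the controls. The log2 fold change was -0.12 (SE 0.16, limma adjusted p = 0.841) with all mice and 0.05 without replicate 3. Pdpn was the most variable of the vessel genes among controls, at 8.55, 8.09, 6.96 and 7.83 in Ptch1ΔCol1 mice, against 8.05, 7.42, 7.75 and 7.63 in controls. Replicates 1 and 2 of the Ptch1ΔCol1 mice were above every control and replicate 3 was below every one. Its log2 fold change was 0.15 (SE 0.29, limma adjusted p = 0.907). It was 0.44 without replicate 3, with a 95% interval from 0.02 to 0.87 (limma adjusted p = 0.436), and -0.09 without replicate 1.

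**Figure D2:**
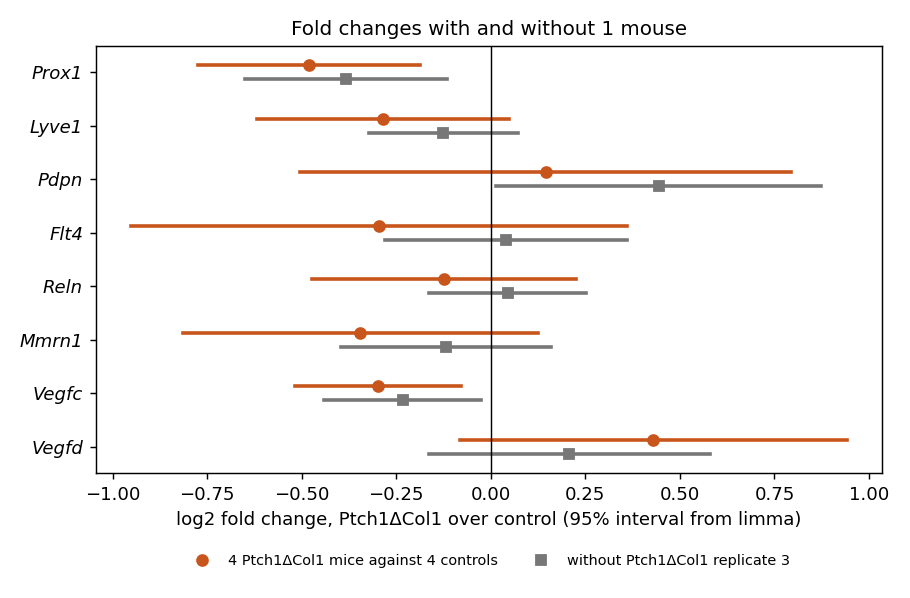
Log2 fold change of each gene, Ptch1ΔCol1 over control, with its 95% interval from limma, for all 8 mice (circles) and without Ptch1ΔCol1 replicate 3 (squares). Prox1 and Vegfc stay below 0 in both, at -0.48 and -0.30 with all mice, while Flt4 and Reln change sign and Pdpn is at 0.15 with all mice and 0.44 without that mouse.

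The males were thus at the 2 ends for Prox1, Mmrn1 and Reln, Ptch1ΔCol1 replicate 3 at the low end and control replicate 2 at the high end. For Vegfd the ends were reversed, with replicate 3 at 6.90 and control replicate 2 at 5.59. For Pdpn each male was the lowest of its group. A term for the difference in effect between males and females, added after the values were seen, was largest for Flt4 at -1.73 and Mmrn1 at -1.29, but passed for none of the 8 (lowest limma adjusted p = 0.0847). It rests on 1 male in each group, so sex and mouse cannot be told apart. In females alone the log2 fold changes were -0.29 for Prox1 and -0.23 for Vegfc, and from -0.12 to 0.35 for the other 6.

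The same mouse was low in endothelial genes at large. The mean of 11 endothelial genes (among them Pecam1, Cdh5, Plvap and Emcn) was 7.59, 7.20, 6.46 and 7.43 in Ptch1ΔCol1 mice, against 7.19, 7.42, 7.15 and 7.06 in controls, and 10 of the 11 had their lowest value in replicate 3, against the 16.8% of all genes. Of these 11 genes 4 had positive and 7 negative log2 fold changes, with a median of -0.04, none past the test and none without overlap. Each of the 8 genes was therefore also expressed relative to that mean in the same mouse, a measure added after the values were seen.

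On that measure Flt4 was at -0.53, -0.57, -1.02 and -0.77 in Ptch1ΔCol1 mice, against -0.51, -0.39, -0.50 and -0.45 in controls. Every Ptch1ΔCol1 mouse was thus low in Flt4 for its endothelial level, though by only 0.02 at the nearest point (difference -0.26; exact permutation test, p = 0.0286). Without replicate 3, the lowest mouse on this measure as well, the difference was -0.16, still without overlap. Among all genes 0.293% were lower and 0.491% higher without overlap on this measure, against 2.9% and 2.47% before the subtraction. Subtracting the mean adds its spread to genes that do not follow it, so these shares do not show how unusual Flt4 is. Prox1 was at -2.25, -1.79, -1.54 and -2.25 in Ptch1ΔCol1 mice, against -1.66, -1.46, -1.48 and -1.45 in controls. Only replicate 3 was among the controls, and the difference was -0.45 (exact permutation test, p = 0.0571), or -0.59 without that mouse.

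Mmrn1 behaved similarly, at 0.96, 1.21, 1.04 and 0.83 in Ptch1ΔCol1 mice, against 1.20, 1.39, 1.31 and 1.38 in controls. A single pair of mice overlapped there, by 0.01 as rounded, and the difference was -0.31 (exact permutation test, p = 0.0571). For Lyve1 the difference was -0.25, for Vegfc -0.27, for Reln -0.09, for Pdpn 0.18 and for Vegfd 0.46, all with overlap (exact permutation test, p from 0.143 to 0.543). Pecam1, Cdh5, Erg, Esam and Egfl7 are also active in lymphatic endothelium. Leaving them out kept Cldn5, Emcn, Plvap, Vwf, Robo4 and Sox17. Their level in lymphatic endothelium was not tested, so the mean of these 6 was not shown to be of blood vessels alone. Relative to it Mmrn1 was separate (difference -0.27, exact permutation test, p = 0.0286), as were 0.203% of all genes lower and 0.73% higher. These shares too were lowered by the subtraction and do not show how unusual Mmrn1 is. Flt4 overlapped on that measure (difference -0.22, exact permutation test, p = 0.0571), and without Ptch1ΔCol1 replicate 3 its difference was -0.09.

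**Figure D3:**
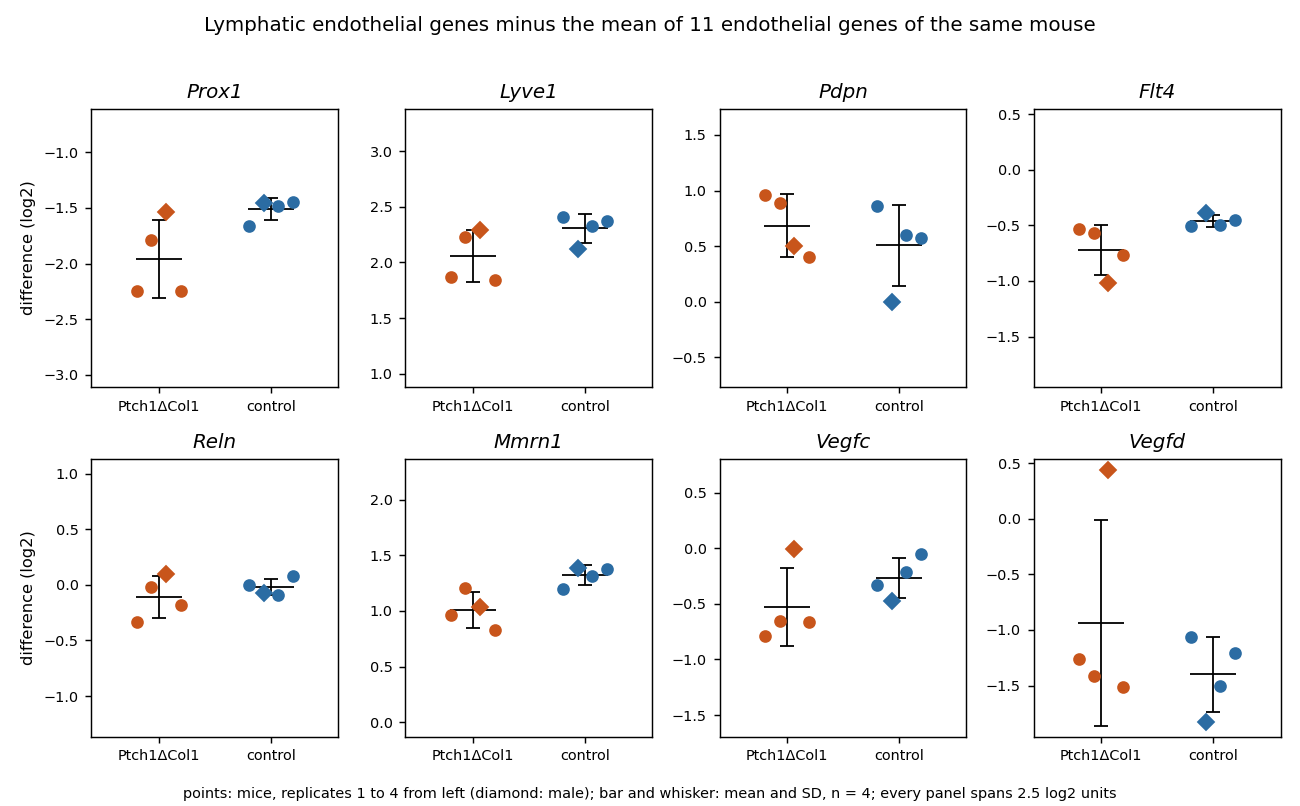
Each gene minus the mean of 11 endothelial genes in the same mouse (log2, vertical axis), by group, with the mean and SD of 4 mice and diamonds for males. Flt4 is lower in all Ptch1ΔCol1 mice, with a difference of means of -0.26, or -0.16 without Ptch1ΔCol1 replicate 3. It is the only gene for which that mouse is the lowest point.

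Some of the genes also varied together between mice of 1 group, though the share of such pairs over all genes was not computed. As a description, the deviations from the group means of Flt4 and Mmrn1 had r = 0.978 over the 8 mice and 0.883 without Ptch1ΔCol1 replicate 3, and those of Prox1 and Mmrn1 0.907 and 0.914. Flt4 and Reln had 0.965 and 0.742. Of the 28 pairs among the 8 genes, 19 had r above 0.5 over 8 mice and 8 without that mouse, and the 4 vessel genes Prox1, Flt4, Mmrn1 and Reln supplied 6 of these 8. For each of these 4 genes control replicate 2 was the highest control, and r without control replicate 2 was not computed. Pdpn went with Lyve1 (0.687 without replicate 3) and with Vegfd (0.834). Vegfc had r above 0.5 with none of the others once replicate 3 was left out.

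Outside these genes, the 5 whose deviations were most like the mean deviation of Prox1, Lyve1, Flt4 and Mmrn1 over the 8 mice were Cd53, Tmprss13, Selplg, Terc and Tmsb4x, with r from 0.987 to 0.996. Cd53 encodes a leukocyte tetraspanin and Selplg the selectin ligand PSGL-1 of leukocytes. Cd53 was at 8.33, 8.09, 6.72 and 7.95 in Ptch1ΔCol1 mice, against 8.21, 8.58, 8.17 and 8.03 in controls, again lowest in replicate 3 and highest in control replicate 2. Without replicate 3, r was from 0.926 to 0.978 for the 5.

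The genes that process, bind or relay these signals were taken as a list of 44, of which 42 were measured. None passed over all genes, 23 had positive and 19 negative log2 fold changes, and the median was 0.02. Ccbe1 and Adamts3, which encode the cofactor and the protease that mature VEGF-C, had log2 fold changes of 0.11 (SE 0.13) and 0.21 (SE 0.20), both with overlap. For the receptors Nrp2 and Kdr they were -0.16 (SE 0.16) and -0.03 (SE 0.23), also with overlap.

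At an unadjusted p under 0.05 from limma, 2 of the 42 were higher and 2 lower, close to the 4.31% and 4.91% of all genes. The groups did not overlap for 1 higher and 2 lower, where all genes gave 2.47% and 2.9%. These counts show nothing particular to the list, and the genes are given as single values. Pgf, which encodes placental growth factor, a ligand of VEGFR-1, was at 4.77, 4.90, 4.26 and 4.57 in Ptch1ΔCol1 mice, against 4.22, 4.07, 4.07 and 4.06 in controls. The groups did not overlap, and the log2 fold change was 0.52 (SE 0.13, limma adjusted p = 0.361), at a signal under percentile 40 of all genes. Nr2f2, which encodes the venous nuclear receptor COUP-TFII that induces Prox1, was at 8.31, 8.09, 8.51 and 8.50 in Ptch1ΔCol1 mice, against 7.83, 8.08, 7.91 and 8.09 in controls. The groups met at 8.09, and the log2 fold change was 0.38 (SE 0.11, limma adjusted p = 0.435). Ptch1ΔCol1 replicate 3 was the highest of all mice at 8.51, and which cells made Nr2f2 was not tested.

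Angpt2, an angiopoietin that lymphatic vessels need to mature, was at 5.77, 5.78, 5.89 and 6.03 in Ptch1ΔCol1 mice, against 6.22, 6.45, 6.08 and 6.17 in controls. Here replicate 3 did not stand apart, the groups did not overlap and the log2 fold change was -0.36 (SE 0.10, limma adjusted p = 0.405). Ackr4, a chemokine scavenger of lymphatic endothelium and stroma, had a log2 fold change of -0.49 (SE 0.15), at a low signal and with overlap. For Angpt1, the activating ligand of the same receptor as Angpt2, it was 0.24 (SE 0.13). For Thy1 it was 0.38 (SE 0.22), for Ackr2 -0.17 (SE 0.08) and for Ephb4 -0.21 (SE 0.11), all with overlap. The third gene of the list without overlap, named after its values were seen, was Vldlr, a reelin receptor, at 6.90, 7.03, 6.97 and 6.97 in Ptch1ΔCol1 mice, against 7.14, 7.17, 7.04 and 7.08 in controls (log2 fold change -0.14, SE 0.07).

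**Figure D4:**
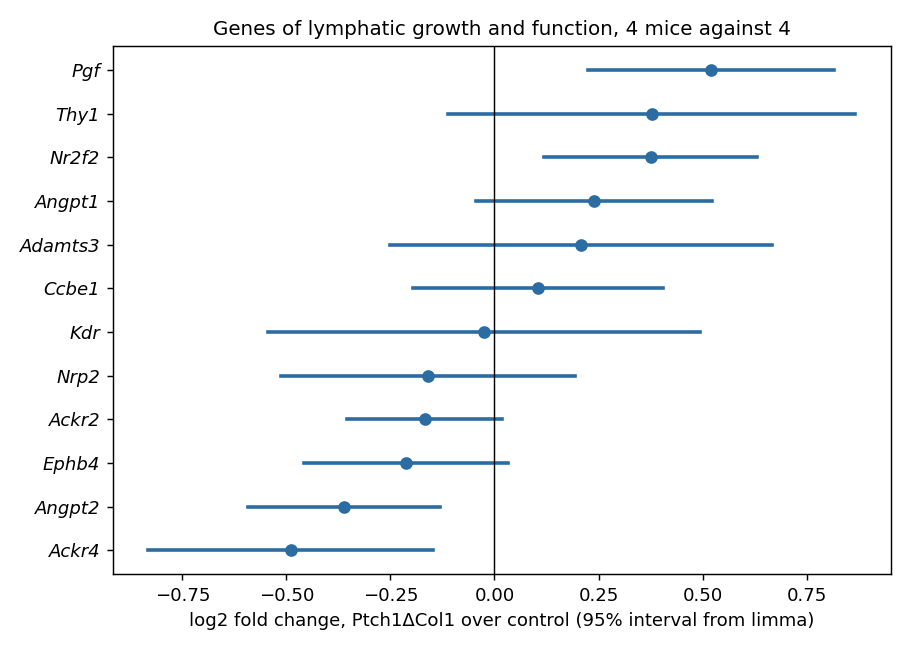
Log2 fold change (horizontal axis, Ptch1ΔCol1 over control) with its 95% interval from limma for the 12 named genes of lymphatic growth and function, 4 mice against 4. Pgf and Nr2f2 lie above 0 and Angpt2 and Ackr4 below it at an unadjusted p under 0.05, and the intervals of the other 8 include 0.

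Other cells of the colon piece, among them some that express these genes, were followed by their markers, as list means on the log2 scale. The 11 macrophage markers ranged from 6.94 to 7.79 in Ptch1ΔCol1 mice and from 7.23 to 7.52 in controls. Within the Ptch1ΔCol1 mice replicate 3 was the lowest and replicate 1 the highest. The same held for Lyve1, Pdpn, Flt4, Mmrn1, Reln, Vegfc and the mean of the 11 endothelial genes, so it is not particular to macrophage markers. The 7 enteroendocrine markers, of cells that can hold Prox1, ranged from 8.66 to 8.85 in Ptch1ΔCol1 mice and from 8.62 to 8.78 in controls. For the 7 measured markers of enteric neurons the range was 6.74 to 7.19 in Ptch1ΔCol1 mice and 6.79 to 7.07 in controls. Among the Ptch1ΔCol1 mice replicate 3 was again the lowest and replicate 1 the highest. The 9 fibroblast markers ranged from 8.97 to 9.58 in Ptch1ΔCol1 mice and from 8.92 to 9.27 in controls. The 5 measured markers of reticular cells, B cells and follicles all had negative log2 fold changes, with a median of -0.91 and list means from 5.33 to 6.61 in Ptch1ΔCol1 mice and from 5.82 to 7.42 in controls. Of these 5 genes, 3 were lower at an unadjusted p under 0.05 from limma, against 4.91% of all genes, and each had overlap. The 6 adipocyte markers ranged from 6.60 to 7.82 in Ptch1ΔCol1 mice and from 6.29 to 7.38 in controls. The 7 smooth muscle markers ranged from 11.75 to 11.86 in Ptch1ΔCol1 mice and from 11.50 to 11.69 in controls, without overlap of these list means. All 7 smooth muscle and all 6 adipocyte markers had positive log2 fold changes. At an unadjusted p under 0.05 from limma, 3 smooth muscle markers were higher, against 4.31% of all genes. So was 1 adipocyte, 1 enteroendocrine and 1 fibroblast marker. Each of these lists had the same number higher without overlap, against 2.47% of all genes. Of the fibroblast markers 2 were lower at that p, with overlap, and no macrophage or enteric neuron marker reached it. No gene of these lists passed, and the part of these cells in the values of the lymphatic genes was not tested.

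The kind of control made little difference to the direction. Against the Ptch1fl/+ controls alone the log2 fold changes were -0.53 for Prox1 and -0.26 for Vegfc, and against the R26-tdTomato controls alone -0.43 and -0.33. The means of the 2 kinds of control differed by -0.07 (Vegfc) to 0.23 (Flt4) for the 8 genes, Ptch1fl/+ minus R26-tdTomato, with 2 mice of each kind.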

How the data were processed

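Whole-colon RNA of 8 mice, separate animals, was measured on 1-colour Affymetrix Mouse Gene ST 2.0 arrays. The authors summarized probes by RMA (median polish), and what they deposited is log2 expression, rounded to 2 decimals. The software of that step is not given in the sources, and the number of arrays limits precision. Of 41345 transcript clusters, 23521 with 1 symbol in the platform annotation were kept, 1820 with several and 16004 with none were left out, and 23328 took their current symbol by gene ID from RefSeq (GRCm38.p6). The brightest of several clusters stood for a gene (1082 genes). Ptch1ΔCol1 mice and controls were set against each other in limma 3.58.1 (R 4.3.3, lmFit, eBayes, Benjamini-Hochberg over 22180 genes, threshold 0.05), and for single genes all 70 relabellings of the mice gave an exact two-sided permutation p. The limma step was checked on simulated data. Members, lists and named genes were chosen with earlier results of these data known. Named were the 8 genes, Gli1 and Ptch1, Ccbe1, Adamts3, Nrp2 and Kdr, the 4 listed genes of smallest p in each direction, and the 5 most alike genes at or above percentile 40 of signal. The alternatives were other scalings, cluster rules, variance models and covariates, a filter on dim genes, subsets of mice and each mouse left out.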

Additional observations from a re-analysis of the deposited data

Results flagged for a closer look

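In 22 genes, each with 2 groups of 4 mice, 7 of 44 groups held a mouse whose gap to the nearest other exceeded the 95% critical share of the range in Dixon's test, where chance gives about 1 in 20. Reln was at 6.56 in Ptch1ΔCol1 replicate 3, with the others from 7.18 to 7.26. Flt4 was at 7.03 and Mmrn1 at 8.81 in control replicate 2, with the other controls from 6.61 to 6.68 and from 8.39 to 8.46. Thy1 was at 6.39 in the same mouse, the others being from 6.78 to 6.84. Adamts3 was at 5.02 in control replicate 3 (others 4.77 to 4.81), and Pgf at 4.22 in control replicate 1 (others 4.06 to 4.07). Gli1 was at 6.42 in Ptch1ΔCol1 replicate 1, with the others at 6.36 and 6.37, so the flag there rests on a gap of hundredths.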

How the results depend on the processing

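None of the 8 genes passed under any of 21 alternatives (lowest limma adjusted p = 0.272, for Prox1, whose highest was 0.974). Of 168 fold changes under alternatives 163 kept their direction. Flt4 turned to 0.137 and Reln to 0.10 in females only. With 1 mouse left out, Flt4 ranged from -0.499 to 0.0408 and Reln from -0.188 to 0.045, both positive only without Ptch1ΔCol1 replicate 3, and Pdpn from -0.0858 (without replicate 1) to 0.444. The median log2 fold change of the 8 genes was 0.0383 in females only and from -0.356 to -0.0388 with 1 mouse left out, the last without Ptch1ΔCol1 replicate 3. The cause was not tested. The groups of Prox1 and Vegfc did not overlap after quantile normalization or median centring either, a check chosen after seeing the data. Over all genes, 4 were called higher and 2 lower with all mice, 10 higher with median centring and 9 with a trended and robust variance. Lower calls were 1 after quantile normalization or with the mean of clusters, and 0 in females only. With sex in the model, or against Ptch1fl/+ controls alone, 1 was higher and 0 lower. With the reporter allele in the model 2 were higher and 0 lower, and against R26-tdTomato controls alone limma called 0 (at an unadjusted p under 0.05, 606 higher and 703 lower). With 1 mouse left out 1 to 10 were higher and 0 to 2 lower (10 and 2 without Ptch1ΔCol1 replicate 3). With a replicate block, 2 were higher and 1 lower. The numbers did not pair the mice, as same-numbered deviations over genes had r from -0.046 to 0.0252.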
